A study of Mus musculus with 57 samples.

Results

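The 8 genes described here encode enzymes and a transporter of nitric oxide, arginine and itaconate metabolism: Nos2, Slc7a2, Ass1, Gch1, Arg1, Arg2, Acod1 and Sod2. They were taken by symbol from 2 count tables of RNA from CD11b-positive mouse brain cells, annotated as microglia in the labels. All 8 were listed among 53278 genes of the first table and 50565 of the second, and all 8 passed the filter on low counts in both, where 15857 and 31709 genes were tested. The LPS experiment held 8 libraries labelled wild type (WT) and ns, 9 labelled WT and LPS, 8 labelled P2RY12 knockout (KO) and ns and 8 labelled KO and LPS. LPS is bacterial lipopolysaccharide, an inflammatory stimulus, injected into the peritoneum at 1 mg/kg, and ns is a label whose meaning the labels do not give. The sex experiment held 18 adult animals with no treatment in their own labels: among males 4 WT and 5 KO, and among females 4 WT and 5 KO. WT and KO mice were littermates, and the labels used here do not give the deleted part of P2ry12, the time after injection or the sex of each animal of the LPS experiment. They also do not say that each library of that experiment came from a separate animal, so p-values there measure the spread between libraries.

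P2RY12, the receptor missing in the KO animals, senses nucleotides released by other cells and is abundant on resting microglia. Nos2, the inducible nitric oxide synthase, makes nitric oxide from arginine in stimulated macrophages and microglia. Slc7a2 carries arginine into the cell, Ass1 recycles citrulline towards arginine, and Gch1 is the rate-limiting enzyme for tetrahydrobiopterin, a cofactor of the synthase. The arginases Arg1, in the cytosol, and Arg2, in mitochondria, split the same substrate into ornithine and urea. Acod1 makes itaconate from an intermediate of the citric acid cycle, and Sod2 is the mitochondrial superoxide dismutase.

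The RefSeq promoter table, on the build GRCm38.p6, held 4 of the 8 genes, and the 250 bases before the start site of each are shown because 3 of these windows carry a motif searched for and all 4 genes were higher after LPS in KO libraries. Capitals mark matches. The windows lie at chr14:103046762-103047011 on the plus strand (Acod1), chr14:47189414-47189663 on the minus strand (Gch1), chr17:13007589-13007838 on the plus strand (Sod2) and chr2:31470020-31470269 on the plus strand (Ass1). All are written 5′ to 3′ in the direction of the gene.
Acod1: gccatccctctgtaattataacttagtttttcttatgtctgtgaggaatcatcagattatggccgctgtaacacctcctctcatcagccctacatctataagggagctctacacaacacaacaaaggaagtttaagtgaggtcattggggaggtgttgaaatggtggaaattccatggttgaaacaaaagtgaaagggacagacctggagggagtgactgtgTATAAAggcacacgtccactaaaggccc
Gch1: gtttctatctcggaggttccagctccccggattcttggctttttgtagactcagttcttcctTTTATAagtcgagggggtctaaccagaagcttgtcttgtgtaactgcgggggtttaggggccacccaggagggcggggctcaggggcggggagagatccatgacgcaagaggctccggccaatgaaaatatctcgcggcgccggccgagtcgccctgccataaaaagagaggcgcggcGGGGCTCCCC
Sod2: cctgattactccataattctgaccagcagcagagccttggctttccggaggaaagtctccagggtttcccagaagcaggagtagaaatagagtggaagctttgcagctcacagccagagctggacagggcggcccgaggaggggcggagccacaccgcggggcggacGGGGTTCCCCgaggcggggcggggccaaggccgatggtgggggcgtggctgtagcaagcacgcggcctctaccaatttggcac
Ass1: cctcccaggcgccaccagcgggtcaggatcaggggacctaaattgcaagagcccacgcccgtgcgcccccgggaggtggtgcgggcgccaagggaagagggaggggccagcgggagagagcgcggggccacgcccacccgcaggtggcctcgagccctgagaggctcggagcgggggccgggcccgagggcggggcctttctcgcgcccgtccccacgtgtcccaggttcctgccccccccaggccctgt
Both strands were searched for the kappaB motif of NF-kappaB, the AP-1 motif TGANTCA, the C/EBP motif TTGCNNAA, the interferon-stimulated response element (ISRE), the cyclic AMP motif TGACGTCA and the TATA box TATAAA. No match overlapped another. The kappaB matches were GGGGCTCCCC at positions -10 to -1 of Gch1 and GGGGTTCCCC at -83 to -74 of Sod2, counted back from the start site. In windows of this length 7.25% of 32851 promoters held a kappaB match. Acod1 had TATAAA at -28 to -23, and Gch1 had the same motif on the other strand at -188 to -183. Of all promoters 12.4% held it. The Ass1 window, with 75.6% G and C, had none of the 6 motifs, and the Acod1 window had 44.4% G and C. AP-1, C/EBP, ISRE and cyclic AMP motifs were in 6.75%, 9.56%, 2.98% and 1.55% of all promoters. A match describes the letters in the window and says nothing of binding.

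On the build GRCm39, to which the sex table was counted, Nos2 spans chr11:78811613-78851052 and Slc7a2 chr8:41315404-41375107, both on the plus strand. Ass1 lies at chr2:31360282-31410682 and Sod2 at chr17:13226726-13237006, also on the plus strand, and none of these 4 spans overlaps another annotated gene. Arg1 (chr10:24791105-24803368, minus strand) overlaps Gm40616, Acod1 (chr14:103284448-103294009, plus strand) overlaps Gm41235, Gch1 (chr14:47391352-47426870, minus strand) overlaps Gm18811, and Arg2 (chr12:79177562-79203075, plus strand) overlaps Gm40462 and Vti1b. The counted spans included introns, and the strand setting is not given in the sources used here, so some counts of Arg1, Arg2, Acod1 and Gch1 may come from these partners.

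Total counts ranged from 15.9 M to 168.4 M in the LPS experiment and from 58.5 M to 318.5 M in the sex experiment. Levels are given in CPM, the counts of a gene per M counts of the TMM-scaled library total, and 4 WT libraries of the LPS experiment stood apart by this measure. They are the WT libraries that carry library number 2 in their names: WT ns 1, WT ns 5, WT LPS 1 and WT LPS 6. Saa3, an acute-phase gene, was at 1781 and 2491 CPM in the 2 labelled ns and at 1.59 and 3.21 CPM in the 2 labelled LPS. The other WT ns libraries had 1.52 to 64.3 CPM and the other WT LPS libraries 1418 to 9720 CPM. P2ry12 went with Saa3: 481 and 927 CPM in the libraries labelled WT ns 1 and 5 against 3516 to 5406 CPM in the other WT ns, and 4461 and 12154 CPM in the libraries labelled WT LPS 1 and 6 against 400.3 to 1063 CPM in the other WT LPS. KO libraries kept counts over P2ry12, at 585 to 1243 CPM with ns and 84.2 to 154 CPM with LPS. Results are therefore given with these 4 libraries in their labelled groups and without them. WT LPS 8 and 9 differed by little more than sampling noise and were counted as 1 sample, which left 32 samples. No gene of the 7 marker lists was at 0 in all libraries of a group.

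After LPS, 7 of the 8 genes were higher in KO libraries: Nos2, Acod1, Arg1, Sod2, Ass1, Slc7a2 and Gch1. Arg2 was the exception. Of all genes tested 10.3% were called higher at an adjusted p under 0.05 by edgeR's quasi-likelihood test. The median log2 fold change of the 8 was 2.07, against -0.02 over all genes tested. Cell type markers differed between the same groups. The sum of 10 microglial markers was 33262 to 52333 CPM in KO ns (median 37580) and 21228 to 27150 CPM in KO LPS (median 24493), with no overlap. The monocyte sum had medians of 211 and 579 CPM in KO ns and KO LPS, the neutrophil sum 913 and 2107 CPM, the border macrophage sum 376 and 160 CPM and the endothelial sum 68.5 and 27.7 CPM, and the ranges of these 4 sums overlapped. In WT with number 2 set apart, the microglial medians were 33194 CPM in ns and 20811 CPM in LPS, the monocyte medians 485 and 706 CPM, the neutrophil medians 2585 and 2482 CPM, the border macrophage medians 405 and 134 CPM and the endothelial medians 49.1 and 22.1 CPM. The part of these differences in the levels of the 8 genes was not tested. In these bulk samples, fewer cells of a type and less RNA per cell cannot be told apart. With all WT libraries as labelled, 0 of the 8 were called between LPS and ns in WT, where 0% of all genes were called. At an unadjusted p under 0.05 there were 5 of the 8, and 3605 of all 15857 genes tested. DESeq2 called 3 higher, namely Sod2, Acod1 and Gch1, with 2.03% of all genes called higher. Without the WT libraries of number 2 the same 7 genes as in KO were called higher in WT, with 15.5% of all genes called higher there and a median over the 8 of 2.92. The CPM of LPS and ns groups did not overlap for Nos2, Arg1, Acod1, Gch1 and Sod2 in KO, where 3.67% of all genes were higher without overlap. These 5 also did not overlap in WT with number 2 set apart, against 10.9% of all genes, and Arg2, Ass1 and Slc7a2 overlapped in both genotypes.

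**Figure D1:**
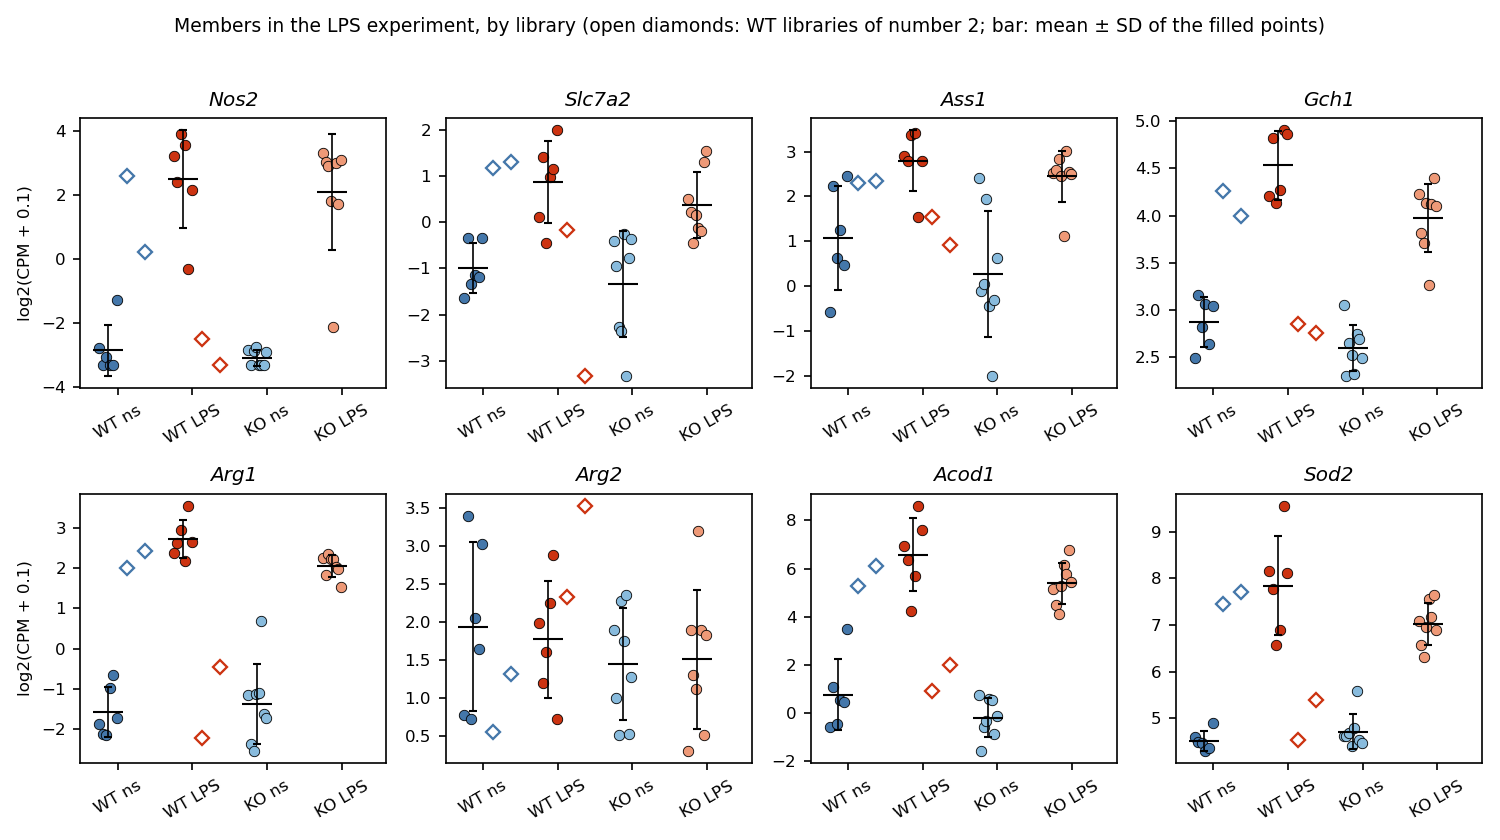
Level of each gene as log2(CPM + 0.1) in the 32 samples of the LPS experiment, by labelled group. Filled points are libraries, bars are their mean ± SD, and open diamonds are the WT libraries of number 2, left out of the bars. For Nos2, Arg1, Acod1, Gch1 and Sod2 the filled LPS points lie above the filled ns points, and the diamonds lie on the other side of their labels.

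Nos2 was close to absent without LPS and had its highest levels in LPS libraries. The 8 KO ns libraries had from 0 to 0.0474 CPM (median 0.0169), that is 5 counts in all, and 4 of them had 0. The KO LPS libraries had 0.128, 7.65 and 9.91 CPM as lowest, median and highest, a mean of 6.07 ± 3.38 (SD, n = 8). Every KO LPS library lay above every KO ns library. The log2 fold change was 7.98 ± 1.45 (SE; adjusted p 0.000535), a fitted value that depends on the prior count because so few counts stood in the ns group. In WT with number 2 set apart, ns libraries had 0 to 0.310 CPM (median 0.00919) and LPS libraries 0.703 to 14.8 CPM (median 7.27), with a log2 fold change of 6.97 ± 0.91. The libraries labelled WT ns 1 and 5 had 6.01 and 1.06 CPM, and those labelled WT LPS 1 and 6 had 0.0758 and 0 CPM, the other way round from their labels.

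One LPS library in each genotype had little Nos2. KO LPS 5 had 3 counts, 0.128 CPM, while the other 7 KO LPS libraries had 3.18 to 9.91 CPM. WT LPS 7 had 0.703 CPM while the other 5 had 4.40 to 14.8 CPM. These were also the libraries with the most Saa3 of their groups, at 3698 and 9720 CPM, and, number 2 set apart, with the least Ass1, at 2.09 and 2.81 CPM. Acod1 and Sod2 were not low in them: 71.3 and 188 CPM in KO LPS 5, and 390 and 754 CPM in WT LPS 7. Their neutrophil marker sums (10 genes) were the highest of their groups outside number 2, 4336 CPM in KO LPS 5 and 13487 CPM in WT LPS 7, against at most 3598 and 3428 CPM in the other libraries. The monocyte sum of KO LPS 5, 484 CPM, was below its group median of 579 CPM. That of WT LPS 7, 2520 CPM, was the highest of the experiment. KO LPS 5 also had the highest endothelial sum of KO LPS (64.0 CPM) and the lowest oligodendrocyte sum of all 32 samples (25.3 CPM). The part of other cells in these values was not tested.

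The genes that supply substrate and cofactor to Nos2 were higher by less. Slc7a2, the arginine transporter, had 0, 0.451 and 0.739 CPM as lowest, median and highest in KO ns and 0.636, 1.05 and 2.80 CPM in KO LPS. The ranges overlapped, and the log2 fold change was 1.72 ± 0.62 (adjusted p 0.0427). This call was lost in 5 of 14 alternatives: without a filter on low counts (adjusted p 0.0678), without the 4 libraries of highest neutrophil sum (0.0651), within library set 1 (0.0938), and within library set 2 with all libraries as labelled (0.514) or without the WT libraries of number 2 (0.196). In WT with number 2 set apart, Slc7a2 went from 0.220 to 0.691 CPM in ns and from 0.632 to 3.87 CPM in LPS, and the log2 fold change there was 2.19 ± 0.51 (adjusted p 0.00163). Ass1, argininosuccinate synthase, had 0.152, 0.884 and 5.25 CPM in KO ns and 2.09, 5.70 and 8.02 CPM in KO LPS. The libraries KO ns 1 and KO ns 4 reached 5.25 and 3.72 CPM, so the groups overlapped; the log2 fold change was 1.82 ± 0.51 (adjusted p 0.0107). In WT with number 2 set apart it was 1.496 ± 0.55 (adjusted p 0.0384). Ass1 in KO was not called within library set 1, one of 2 sets that the library names form, either with all libraries as labelled (adjusted p 0.174) or without the WT libraries of number 2 (0.154).

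Gch1, which opens tetrahydrobiopterin synthesis, was expressed in every library. KO ns libraries had 4.83, 5.91 and 8.18 CPM as lowest, median and highest, and KO LPS libraries 9.52, 17.2 and 20.96 CPM. The groups did not overlap, and the log2 fold change was 1.41 ± 0.29 (adjusted p 0.00108). WT libraries other than number 2 had 5.53 to 8.86 CPM in ns and 17.4 to 29.8 CPM in LPS, with a log2 fold change of 1.73 ± 0.19. The libraries labelled WT ns 1 and 5 had 19.0 and 15.8 CPM, within or near the LPS range, and those labelled WT LPS 1 and 6 had 7.09 and 6.65 CPM, within the ns range.

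The 2 arginases differed in their values. Arg1 had 0.0717, 0.285 and 1.52 CPM in KO ns, where the highest was KO ns 6, and 2.76, 4.25 and 5.01 CPM in KO LPS. The groups did not overlap, their means differed by a ratio of 10.3, and the log2 fold change was 3.53 ± 0.80 (adjusted p 0.00248). In WT other than number 2, Arg1 had 0.129 to 0.541 CPM in ns and 4.42 to 11.5 CPM in LPS, with a log2 fold change of 4.82 ± 0.51. Arg2 had 1.33, 2.80 and 5.01 CPM in KO ns and 1.14, 2.91 and 9.09 CPM in KO LPS, and its log2 fold change was 0.11 ± 0.45 (adjusted p 0.894). In WT other than number 2 the Arg2 values were 1.56 to 10.4 CPM in ns and 1.56 to 7.25 CPM in LPS, and the fold change was -0.33 ± 0.51 on the log2 scale (adjusted p 0.664). High Arg2 stood beside a high neutrophil marker sum in some libraries and not in others. WT ns 3 and WT ns 8 had the highest neutrophil sums of the experiment, 18158 and 16776 CPM, and 10.4 and 8.02 CPM of Arg2. The other 4 WT ns libraries outside number 2 had sums of 321 to 3589 CPM and 1.56 to 4.06 CPM of Arg2. The highest Arg2 of all, 11.4 CPM, stood in the library labelled WT LPS 6, where the neutrophil sum was 5300 CPM. KO ns 4 and the library labelled WT LPS 1, with neutrophil sums of 7524 and 7295 CPM, had 4.74 and 4.93 CPM of Arg2. The part of these cells in the Arg2 values was not tested. Without WT ns 3, WT ns 8, WT LPS 7 and KO ns 6, a choice made after seeing the data, the KO value was 0.23 ± 0.42 (adjusted p 0.739).

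Acod1, the itaconate enzyme, had the largest change after Nos2. KO ns libraries had 0.232, 0.750 and 1.58 CPM as lowest, median and highest, and KO LPS libraries had 17.2, 41.0 and 108 CPM. The groups did not overlap, and the means differed by a ratio of 55.1. The log2 fold change was 5.64 ± 1.02 (adjusted p 0.000535). WT libraries other than number 2 had 0.571 to 11.1 CPM in ns and 18.7 to 390 CPM in LPS, and the log2 fold change was 5.83 ± 0.68. The highest ns value belonged to WT ns 8, which also had the most Saa3 of that group (64.3 CPM) and a neutrophil sum of 16776 CPM. The libraries labelled WT ns 1 and 5 had 38.7 and 68.7 CPM, and those labelled WT LPS 1 and 6 had 1.78 and 3.91 CPM.

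Sod2 was expressed in every library and was higher after LPS. KO ns libraries had 20.99, 24.6 and 47.8 CPM, the highest again in KO ns 6, and KO LPS libraries had 79.0, 130 and 200.4 CPM. The groups did not overlap, and the log2 fold change was 2.31 ± 0.56 (adjusted p 0.00392). WT libraries other than number 2 had 19.5 to 29.9 CPM in ns and 95.1 to 754 CPM in LPS, with a log2 fold change of 3.64 ± 0.36. The libraries labelled WT ns 1 and 5 had 174 and 210.0 CPM, and those labelled WT LPS 1 and 6 had 22.9 and 42.0 CPM.

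The library names of the LPS experiment fall into 2 sets that each hold all 4 groups. With all libraries as labelled, 5 of the 8 genes were called between LPS and ns in KO within set 1. Of all genes 15.5% were called higher there. Within set 2, 0 of the 8 and 0% of all genes were called. There 6 of the 8 had an unadjusted p under 0.05, as had 2126 of all 16250 genes tested. Without the WT libraries of number 2, which share the estimate of spread, 6 of the 8 were called in KO in each set, against 23.7% of all genes called higher in set 1 and 2.12% in set 2. In WT the counts were then 6 within set 1, against 21.1% of all genes, and 4 within set 2, against 1.51%.

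The comparison of KO with WT asks whether loss of P2RY12 changes these levels. At ns, edgeR called 0 of the 8 with all libraries as labelled, where 0.114% of all genes were called. With only the ns groups in the fit, 6 of the 8 passed the filter on low counts. The rest were tested at ns because the LPS libraries were in the filter. In the main fit 5 of the 8 had an unadjusted p under 0.05, as had 1360 of all 15857 genes tested. DESeq2 called Nos2 and Acod1 lower in KO, with 0.725% of all genes called lower. These values rest on the libraries labelled WT ns 1 and 5: Nos2 was -5.02 ± 1.43 (adjusted p 0.187) and Acod1 -4.04 ± 0.96 (adjusted p 0.119) with them, and -1.24 ± 1.23 and -1.33 ± 0.57 (adjusted p 0.647 and 0.522) without the WT libraries of number 2. Without these libraries 0 of the 8 and 0.0932% of all genes were called. An unadjusted p under 0.05 was then found for 1 of the 8 and for 1480 of all 16088 genes tested. CPM of KO ns and WT ns overlapped for all 8, number 2 set apart, and 0.839% of all genes did not overlap.

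At LPS, edgeR and DESeq2 called 0 of the 8 with all libraries as labelled, and edgeR called 0.126% of all genes. By edgeR 0 of the 8 had an unadjusted p under 0.05, against 1170 of all 15857 genes tested. Without the WT libraries of number 2, edgeR called 0 of the 8 and 0.0746% of all genes. All 8 fold changes were then negative, with a median of -0.56 against -0.03 over all genes, of which 44.7% were positive. The 8 genes were read in the same libraries, so their signs are not 8 separate results. An unadjusted p under 0.05 was found for 1019 of all 16088 genes tested and for 3 of the 8. The 3 with an unadjusted p under 0.05 were Sod2 at -1.07 ± 0.30 (adjusted p 0.347), Acod1 at -1.51 ± 0.51 (adjusted p 0.499) and Gch1 at -0.56 ± 0.17 (adjusted p 0.452). Sod2 had 79.0 to 200.4 CPM in KO LPS. The 6 WT LPS samples other than number 2 had 95.1 to 754 CPM, and 4 of them lay above every KO LPS library. Acod1 had 17.2 to 108 CPM in KO LPS and 18.7 to 390 CPM in WT LPS. Gch1 had 9.52 to 20.96 CPM in KO LPS and 17.4 to 29.8 CPM in WT LPS. The groups overlapped for all 8, and 0.259% of all genes did not overlap. With all libraries as labelled, Sod2 was at -0.70 ± 0.54 and Acod1 at -1.11 ± 0.83. From that fit, leaving out the 4 libraries of highest neutrophil sum, a choice made after seeing the data, gave Sod2 -0.17 ± 0.52 and Acod1 -0.61 ± 0.86.

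Whether the LPS response itself differed between genotypes was tested as an interaction. With all libraries as labelled 0 of the 8 were called by edgeR or DESeq2, and edgeR called 0% of all genes. By edgeR 2 of the 8 had an unadjusted p under 0.05, as had 1698 of all 15857 genes tested. Without the WT libraries of number 2 edgeR also called 0 of the 8. An unadjusted p under 0.05 was then found for 708 of all 16088 genes tested and for 1 of the 8. That gene was Sod2, with an interaction of -1.30 ± 0.43 (adjusted p 0.772), the KO response being the smaller. Arg1 was at -1.24 ± 0.61, Acod1 at -0.18 ± 0.78 and Nos2 at 0.91 ± 1.31. With the libraries as labelled these 4 values were 0.58, 1.55, 2.93 and 5.12 for Sod2, Arg1, Acod1 and Nos2, so the sign for Sod2, Arg1 and Acod1 turned with the 4 libraries.

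**Figure D2:**
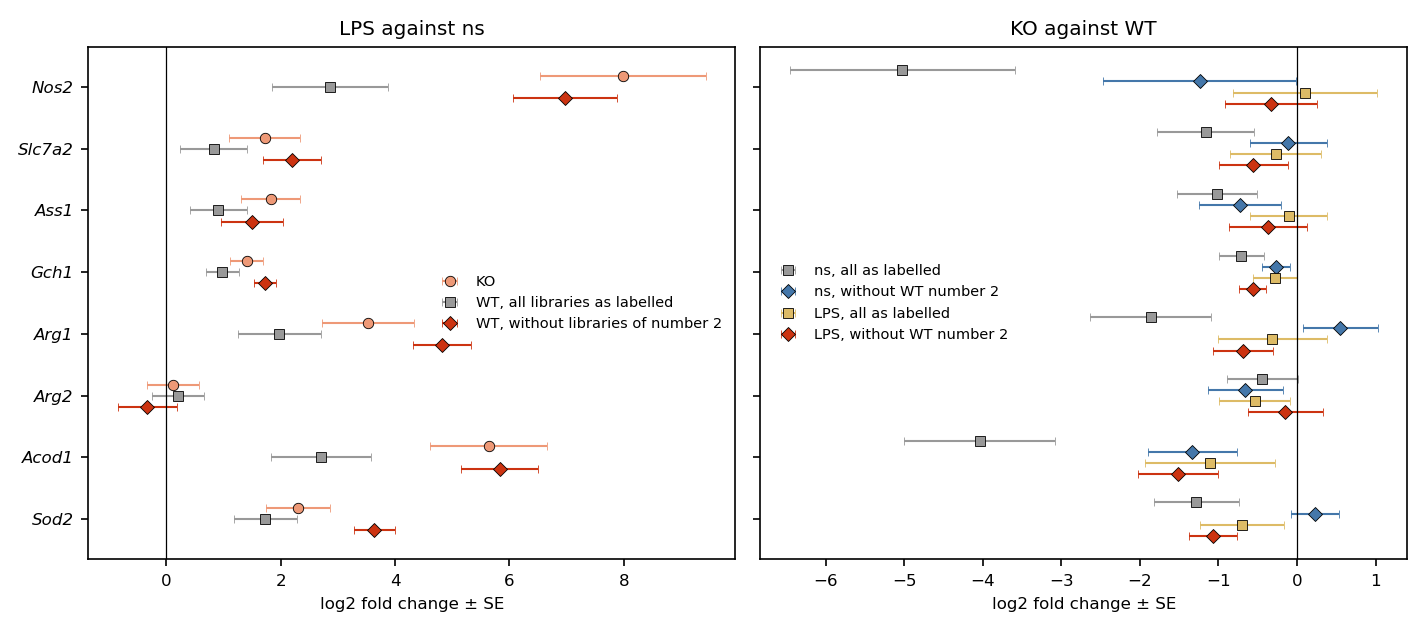
Log2 fold change ± SE of each gene in the LPS experiment, for LPS against ns on the left and KO against WT on the right, from edgeR. Circles are KO, squares use all WT libraries as labelled and diamonds leave out the WT libraries of number 2. On the left, Nos2 is at 7.98 in KO and 6.97 in the WT diamond, and all 3 Arg2 values have error bars that reach 0. On the right, Nos2 at ns is at -5.02 in the square and -1.24 in the diamond.

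In the sex experiment none of the 8 genes was called between KO and WT. Averaged over the sexes, 0.432% of all genes were called. In males it was 0.00946%, in females 0.164%, and for the sex-by-genotype interaction 0%. In each of these comparisons 0 of the 8 had an unadjusted p under 0.05 by edgeR, and DESeq2 called 0. Of all 31709 genes tested, 2860, 2171, 1655 and 879 had such a p by edgeR, in the same order. DESeq2 gave no adjusted p for Nos2 averaged over the sexes or in females, so it could not call Nos2 there. DESeq2 had an unadjusted p under 0.05 for 2 of the 8 averaged over the sexes, for 1 in males, and for 0 in females and in the interaction. Over all genes these DESeq2 counts were 3079, 2555, 1818 and 1062. Sod2 varied least, with 24.8 ± 2.07 CPM (SD) in male WT (n = 4), 25.4 ± 1.45 in male KO (n = 5), 24.4 ± 0.963 in female WT (n = 4) and 24.2 ± 2.24 in female KO (n = 5). Its log2 fold change averaged over the sexes was 0.01 ± 0.06. Nos2 was at 0.111 to 0.545 CPM over all 18 animals, on 9 to 130 counts, and its log2 fold change was 0.32 ± 0.28. Low counts in the sex table were mostly even numbers, so how many separate reads stand behind these counts is not known. Slc7a2 and Arg1 were at 0.964 to 2.84 and 0.454 to 1.08 CPM, with log2 fold changes of -0.03 ± 0.21 and -0.15 ± 0.21. The 2 tables were counted differently, so these levels are not set against those of the LPS experiment.

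Arg2, Acod1, Ass1 and Gch1 each had their highest values in the same 2 animals, male WT 5 and female WT 2. Acod1 was at 1.14, 2.84, 2.38 and 44.6 CPM in male WT 1, 3, 4 and 5, and at 2.68, 5.64, 1.52, 2.45 and 2.83 CPM in male KO 1 to 5. In females it was at 2.26, 34.5, 3.15 and 3.71 CPM in WT 1, 2, 3 and 5, and at 3.71, 2.29, 2.20, 10.2 and 7.15 CPM in KO 1 to 5. One WT animal of each sex was thus far above all others. The lowest value of all 18 animals was that of male WT 1, and the other 5 WT animals lay within the range of the KO animals. Arg2 was at 6.88, 10.3, 10.7 and 56.9 CPM in those male WT animals and at 4.84, 35.8, 8.00 and 6.53 CPM in the female WT. KO animals had 7.36 to 11.4 CPM of Arg2 in males and 5.69 to 14.9 CPM in females. Ass1 was at 6.16 and 4.74 CPM in male WT 5 and female WT 2 and at 0.422 to 1.97 CPM in the other 16 animals. Gch1 was at 14.0 and 11.4 CPM in them and at 5.93 to 10.5 CPM in the others.

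These 2 animals also had the highest neutrophil marker sums, 49213 and 28858 CPM, against 724 to 7708 CPM in the others. Their monocyte marker sums (7 genes) were 4496 and 2575 CPM against 122 to 722 CPM. Their microglial sums, over 9 of the 10 listed genes, were 22572 and 23106 CPM against 29712 to 36860 CPM. Female KO 4, with the highest neutrophil sum among KO animals (5527 CPM), also had the most Arg2 and Acod1 among them. Male WT 4, with a higher neutrophil sum of 7708 CPM, had 2.38 CPM of Acod1, 10.7 CPM of Arg2 and 6.95 CPM of Gch1, within the range of the KO animals. The part of these cells in the 4 genes was not tested. With all animals, log2 fold changes averaged over the sexes were -1.58 ± 0.75 for Acod1 (adjusted p 0.560), -0.94 ± 0.47 for Arg2 (0.588), -0.74 ± 0.45 for Ass1 (0.705) and -0.19 ± 0.15 for Gch1 (0.832). Without the 2 animals, a choice made after seeing the data, they were 0.64 ± 0.39, 0.21 ± 0.22, 0.30 ± 0.27 and 0.060 ± 0.12, and 0 of the 8 were called, against 0.969% of all genes.

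**Figure D3:**
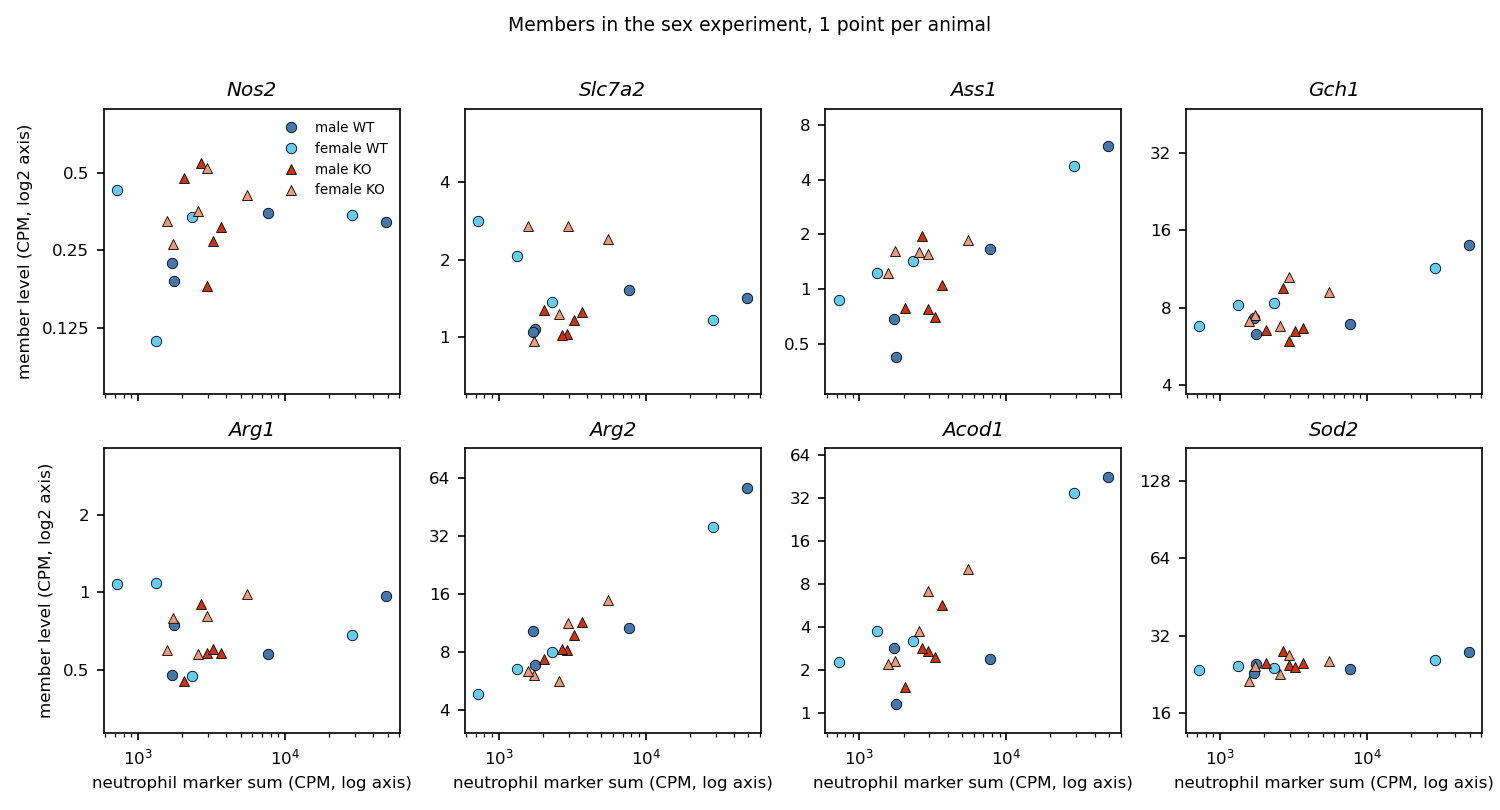
Level of each gene in CPM (log2 axis) against the neutrophil marker sum in CPM (log axis), 1 point per animal of the sex experiment, by sex and genotype. Male WT 5 and female WT 2 lie farthest right and highest for Arg2, Acod1, Ass1 and Gch1 (56.9 and 35.8 CPM of Arg2), and within the range of the others for Nos2, Slc7a2, Arg1 and Sod2.

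Of 55 other genes on 8 lists around these pathways, 47 were tested in the LPS experiment, and 9 were higher and 5 lower after LPS in KO, against 10.3% and 12% of all genes. The median log2 fold change of the 47 was 0.06. Among the 4 other arginine transport genes, 2 were higher: Slc7a1 at 1.88 ± 0.40 (adjusted p 0.00153) and Slc7a6 at 0.99 ± 0.23 (adjusted p 0.00250), both carriers of cationic amino acids. Slc7a1 had 19.9 ± 8.2 CPM in KO ns and 71.7 ± 25 in KO LPS. Of 2 tested genes on the list for citrulline recycling and the breakdown of synthase inhibitors, Ddah2 was lower at -2.35 ± 0.44 (adjusted p 0.000662). Its level went from 27.4 ± 5.5 to 5.44 ± 1.6 CPM. Whether Ddah2 degrades such inhibitors was not tested here. Of 11 ornithine and polyamine genes, 2 were higher and 1 lower. Azin2, an inhibitor of ornithine decarboxylase antizyme, was at 1.97 ± 0.35. Srm, spermidine synthase, was at 0.88 ± 0.27, and Sat1, which acetylates polyamines, at -0.85 ± 0.27.

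Of 5 tested tetrahydrobiopterin genes, 1 was higher and 0 lower. Of 3 tested genes for the nitric oxide receptor and removal, Prkg1, a cyclic GMP-dependent kinase, was lower at -2.48 ± 0.53 (adjusted p 0.00164). The endothelial marker sum was also lower by median, at 68.5 CPM in KO ns and 27.7 CPM in KO LPS. The part of cell type differences in Prkg1 and the other list genes was not tested. None of 2 tested other synthases and partners was called. Of 14 genes of citrate supply and itaconate handling, 3 were higher and 1 lower. Idh2, mitochondrial isocitrate dehydrogenase, was at -0.68 ± 0.16, and Cs, citrate synthase, at 0.59 ± 0.19. Idh3a, a subunit of another isocitrate dehydrogenase, named after its values were seen, was at 0.90 ± 0.32. Of 6 tested superoxide and peroxide enzymes other than Sod2, Cat, catalase, was lower at -0.60 ± 0.15, and Txn2, mitochondrial thioredoxin, higher at 0.55 ± 0.18.

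With WT libraries as labelled, edgeR called 0 of the 47 and 0% of all genes in WT. Without number 2 it called 13 higher and 5 lower, against 15.5% and 15.2% of all genes. Slc7a1 was then at 1.41 ± 0.30, Ddah2 at -2.38 ± 0.22, Azin2 at 1.56 ± 0.30, Prkg1 at -2.61 ± 0.31 and Idh3a at 1.68 ± 0.31. Cs and Sat1 were not called (0.40 ± 0.17 and -0.13 ± 0.31). No list gene was called between KO and WT in the LPS experiment. With all libraries as labelled, 0.114% of all genes were called at ns and 0.126% at LPS. In the sex experiment 54 of the 55 were tested and 1 was called. Of all genes 0.432% were called averaged over the sexes and 0.164% in females. The list gene called was Ddah1, which degrades methylated arginines that inhibit nitric oxide synthases. It was higher in KO averaged over the sexes at 0.40 ± 0.07 (adjusted p 0.0180) and in females at 0.52 ± 0.11 (adjusted p 0.0492). Female WT animals had 30.5 ± 3.7 CPM of Ddah1 and female KO animals 43.9 ± 5.7 CPM. Male WT animals had 34.0 ± 4.5 CPM and male KO animals 41.0 ± 2.5 CPM. The endothelial marker sum was also higher in KO, at 61.5 to 71.7 CPM in male KO and 55.5 to 61.4 CPM in male WT. In females its ranges overlapped, with medians of 73.8 CPM in KO and 61.2 CPM in WT. The part of such cells in the Ddah1 values was not tested. The averaged call was lost without male KO replicate 2, male KO replicate 5 or male WT replicate 4 (adjusted p 0.0611, 0.0827 and 0.0707). The call in females was lost with only the female groups in the fit (adjusted p 0.183) with a replicate block (0.0716), and when any single animal other than male WT 5, female WT 2 and female KO 3 was left out (at most 0.261). The interaction of sex and genotype for Ddah1 was not called (0.25 ± 0.15). Ddah1 did not pass the filter of the LPS experiment.

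**Figure D4:**
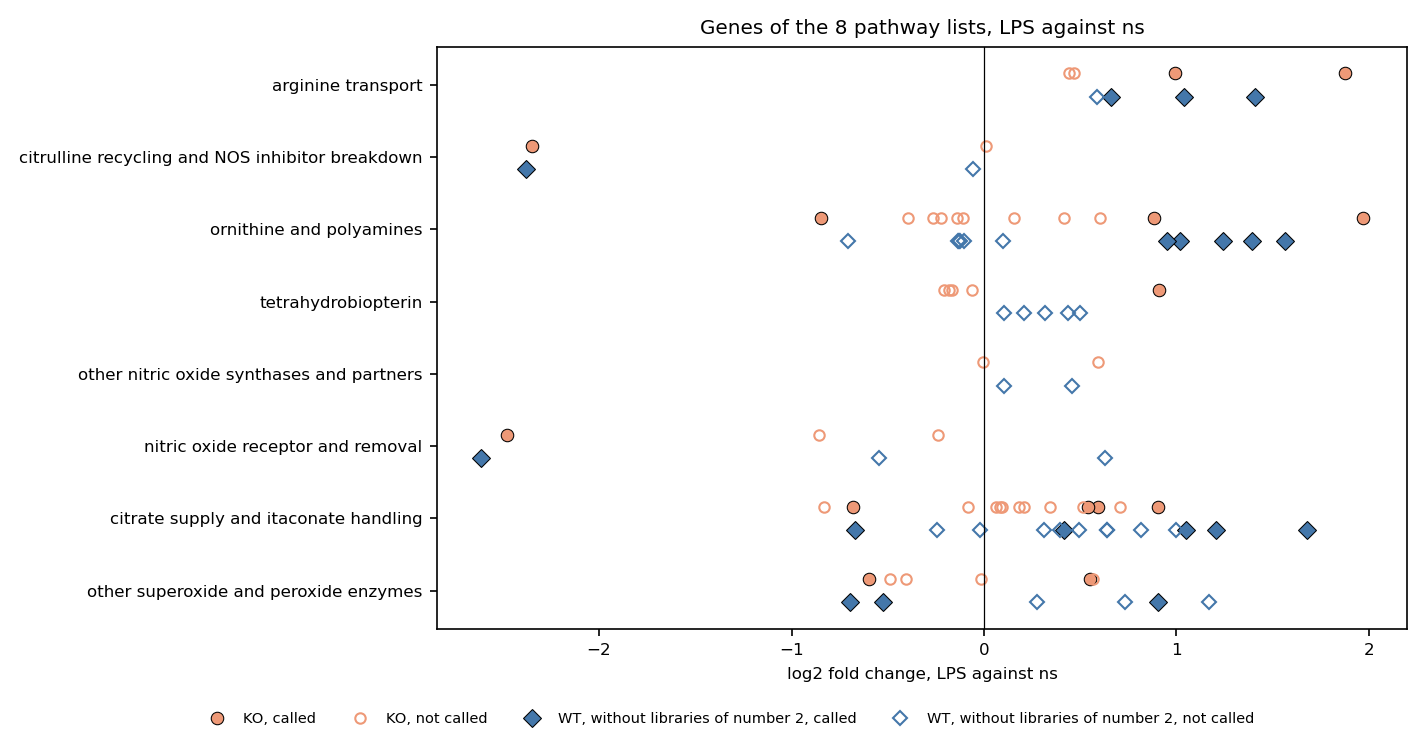
Log2 fold change of LPS against ns for the tested genes of the 8 lists, in KO with all libraries (circles) and in WT without the libraries of number 2 (diamonds). Filled symbols were called at an adjusted p under 0.05 by edgeR. The lowest values are Prkg1 (-2.48 in KO and -2.61 in WT) and Ddah2 (-2.35 and -2.38).

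The genes whose pattern over the 32 samples was closest to each member were found as those with the smallest mean absolute difference in centred log2 CPM. For Nos2, whose own mean absolute deviation was 3.57, they were Adamtsl4 (0.82) and Ikbke (1.13). For Acod1 they were Msr1, a scavenger receptor (0.54), and Il1r2, the interleukin-1 decoy receptor (0.75). For Sod2 they were Tlr2, a receptor for bacterial lipoproteins (0.27), and the chemokine gene Cxcl16 (0.32). Gch1 was nearest to Rnf149 (0.18) and Gm15832 (0.22), and Arg1 to Gm11707 (0.57) and Cpd (0.59). For Slc7a2 they were Eqtn (0.67) and Slc4a8 (0.71), and for Ass1 Ripor2 (0.39) and Mlkl (0.49). Arg2 was nearest to A530064D06Rik (0.38). These distances describe the same libraries for every gene and carry no test.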

How the data were processed

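RNA counts of CD11b-positive mouse brain cells were analysed from 2 tables. The authors deposited raw read counts per gene, whole numbers that were not normalized. The submitters' processing notes name FastQC, STAR 2.6.1, featureCounts, Subread and DESeq2 and the build GRCm39, with no role or order. Per the file headers, gene lengths in the sex table equal whole spans, so introns were counted. Even numbers made up 77.1% to 86.1% of its low counts per library, against 41.5% to 46.5% in the LPS table, so no model joined them. The 6 repeat libraries of the sex experiment were not analysed here.

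Genes were filtered with filterByExpr, scaled by TMM and tested with edgeR 4.0.16 (quasi-likelihood F test, robust) in R 4.3.3, with a mean per group and, in the LPS experiment, library set as covariate. P-values were adjusted by Benjamini-Hochberg over all genes, and SE is the fold change over the square root of F. WT LPS 8 and 9 (chi-square ratio 1.86; other pairs 8.32 or more) were summed after seeing the counts. Tests were checked on simulated counts that gave every gene the same spread and changed only genes with many counts. No simulated library went against its label, so the check does not cover the WT libraries of number 2. DESeq2 1.42.0, other scalings and filters, the replicate block and left-out libraries were alternatives. Promoters came from RefSeq.

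Members and lists were chosen with earlier results of these data known. Named from each list were up to 3 genes with the lowest adjusted p among those called for LPS in KO, any called in another comparison, and the 2 nearest genes of each member; a few genes that this rule names are not reported here. Marker lists covered microglia, neutrophils, monocytes, border macrophages, endothelial cells, astrocytes and oligodendrocytes; sums of the last 3 were at most 94.8, 12.9 and 128 CPM in the LPS experiment and 80.0, 98.7 and 156 CPM in the sex experiment, and those of border macrophages 86.5 to 1007 and 163 to 934 CPM.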

Additional observations from a re-analysis of the deposited data

Results flagged for a closer look

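In 15 of the values of the 8 genes, 1 library lay far from the rest of its labelled group, with a gap to the next library above the 95% critical value of Dixon's test on CPM. The test was applied to 64 combinations of gene and group, and chance flags about 1 in 20 groups. In male WT 5, Acod1 (44.6 CPM, next 2.84), Arg2 (56.9, next 10.7) and Gch1 (14.0, next 7.34) were high. In female WT 2, Acod1 (34.5, next 3.71), Arg2 (35.8, next 8.00) and Ass1 (4.74, next 1.42) were high. These animals had the highest neutrophil marker sums, and the part of such cells was not tested. In male KO 5, Ass1 (1.97, next 1.05), Gch1 (9.56, next 6.69) and Sod2 (27.9, next 25.1) were the highest, with a neutrophil sum of 2687 CPM, within the range of the other male KO animals. In the LPS experiment, KO ns 6 had the highest Arg1 (1.52, next 0.369) and Sod2 (47.8, next 27.7), WT LPS 7 the highest Sod2 (754, next 284), and KO LPS 5 the highest Arg2 (9.09, next 3.63) and the lowest Ass1 (2.09, next 5.36). The library labelled WT ns 1 had the highest Nos2 of its group (6.01, next 1.06 in the library labelled WT ns 5).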

How the results depend on the processing

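For LPS against ns in KO, 7 members were called under every alternative except these: 0 with library set 2 alone, 5 with set 1 alone, and 6 without a filter, with only the groups compared (where Nos2 did not pass the filter), without the 4 libraries of highest neutrophil sum, and in each set without the WT libraries of number 2. All but Arg2 were positive in all alternatives run (Nos2 7.64 to 8.44, Acod1 5.21 to 6.20, Sod2 2.19 to 2.54). For LPS against ns in WT the main count of 0 became 7 without the WT libraries of number 2, 7 without number 2 in all groups, 3 with DESeq2, and 6 and 4 in sets 1 and 2 without the WT libraries of number 2. For KO against WT at ns, DESeq2 called 2 and the other alternatives 0. All other comparisons gave 0 members throughout, leave-one-out fits of the sex experiment included (0 to 0). The cause was not tested beyond the libraries left out.

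Some fold changes turned sign. Without the WT libraries of number 2 these were Arg2 in WT (-0.33), Arg1 and Sod2 at ns (0.55, 0.22), Nos2 at LPS (-0.33), and the interactions of Arg1, Acod1, Sod2, Slc7a2, Gch1 and Arg2 (-1.24, -0.18, -1.30, -0.45, -0.30, 0.51). Without number 2 in all groups they were Arg2 in KO and WT (-0.0099, -0.38), Arg1 and Sod2 at ns (0.51, 0.21), Nos2 at LPS (-0.25), and the interactions of Arg1, Sod2, Gch1 and Arg2 (-1.27, -1.40, -0.18, 0.37). Set 1 alone gave Arg2 -0.30 in KO and -0.064 in WT, Nos2 -0.027 at LPS, and an Ass1 interaction of -0.096. Set 1 without the WT libraries of number 2 gave Arg2 -0.28 in KO and -0.53 in WT, Nos2 0.70, Arg1 0.70, Ass1 0.32 and Sod2 0.062 at ns, Nos2 -0.43 at LPS, and interactions of -1.13 (Nos2), -1.20 (Arg1), -1.07 (Acod1), -0.93 (Sod2), -0.087 (Slc7a2), -0.22 (Gch1), -0.74 (Ass1) and 0.25 (Arg2). Set 2 alone gave Ass1 0.025 at LPS and an Arg2 interaction of 0.24, and keeping WT LPS 8 and 9 apart an Arg2 interaction of 0.029. Set 2 without the WT libraries of number 2 gave Arg2 -0.15 in WT, Arg1 0.53, Slc7a2 0.10 and Sod2 0.39 at ns, Nos2 -0.20 and Arg2 0.032 at LPS, and interactions of -1.47 (Arg1), -1.61 (Sod2), -0.74 (Slc7a2), -0.33 (Gch1) and 0.77 (Arg2). Without the 4 libraries of highest neutrophil sum, Arg2 was 0.35 at ns and Nos2 -0.055 at LPS. Without the 2 animals of highest neutrophil sum, KO against WT was 0.21 for Arg2, 0.64 for Acod1, 0.30 for Ass1 and 0.060 for Gch1 over the sexes, 0.52 for Acod1, 0.16 for Ass1, 0.066 for Arg1 and 0.042 for Gch1 in males, and 0.75 for Acod1, 0.46 for Arg2, 0.43 for Ass1, 0.079 for Gch1, -0.065 for Slc7a2 and 0.019 for Sod2 in females; the sex interaction of Arg1 was -0.29. Without a filter, Sod2 in females was 0.0039.

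Leaving out each animal in turn gave, over the sexes, -0.11 to 0.11 for Slc7a2 and -0.023 to 0.040 for Sod2. In males it gave -2.46 to 0.52 for Acod1, -1.49 to 0.16 for Ass1, -0.34 to 0.063 for Arg1, -0.46 to 0.041 for Gch1 and -0.023 to 0.090 for Sod2, the highest without male WT replicate 5. In females it gave -1.51 to 0.75 for Acod1, -0.92 to 0.46 for Arg2, -0.65 to 0.43 for Ass1 and -0.18 to 0.077 for Gch1, the highest without female WT replicate 2, and -0.33 to 0.013 for Arg1, -0.073 to 0.38 for Slc7a2 and -0.052 to 0.026 for Sod2. The sex interaction ranged from -0.35 to 0.13 for Nos2, -0.21 to 0.19 for Arg1, -0.59 to 1.70 for Arg2, -1.61 to 2.83 for Acod1, -0.55 to 1.53 for Ass1, -0.12 to 0.37 for Gch1 and -0.10 to 0.00082 for Sod2.

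With the replicate block, member counts were 7 for LPS in KO and 0 elsewhere; Arg2 in KO was -0.0065, Ass1 at LPS 0.053, Slc7a2 in females -0.029 and the sex interaction of Arg1 -0.092, and Ddah1 in females lost its call. Deviations of same-numbered samples correlated with a mean r of 0.111 over 45 pairs (lowest -0.840) in the LPS experiment and 0.126 over 8 pairs (lowest -0.0544) in the sex experiment, so the numbers were not taken as pairs.

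Counts over all genes moved by more than 1.5 times in some fits. For LPS in KO the 3542 calls became 0 in set 2 alone, and 7219 and 721 in sets 1 and 2 without the WT libraries of number 2. For LPS in WT the count of 0 became 36 with WT LPS 8 and 9 apart, 732 with DESeq2, 4934 without the WT libraries of number 2, 5739 without number 2 in all groups, and 6792 and 547 within sets 1 and 2 without the WT ones. DESeq2 called 157, 135 and 11 at ns, at LPS and for the interaction against 18, 20 and 0, and other fits called 0 to 9 at ns and 0 to 35 at LPS where they differed. Over the sexes, in males and in females, DESeq2 called 359, 24 and 213 against 137, 3 and 52. The block called 84 over the sexes and 5 in females, and leaving out the 2 animals gave 309 and 192. Only the groups compared gave 3 in females and no filter 96. Leaving out 1 animal gave 54 to 279 over the sexes and 5 to 132 in females. Nos2 rested on 5 counts in all in KO ns and Arg1 on 71.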
